A study of Mus musculus with 10 samples.

Results

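The T cell receptor complex and its first signalling steps were examined through 10 genes: Cd3e, Cd3d, Cd3g and Cd247, which encode the invariant chains of the receptor; Cd4 and Cd8a, the coreceptors; Cd28 and Cd2, costimulatory and adhesion receptors; and the kinases Lck and Zap70. Each gene was represented by the windows of 1000 bp, placed every 500 bp, that overlapped the RefSeq span of a gene on GRCm38 or its 5 kb flanks. There were 145 such windows among the 446336 of the whole data set. The measurement was CpG methylation, as the percentage of methylated calls among all calls of a mouse in a window, from capture-based bisulfite sequencing (Methyl-seq) of lung DNA. All 10 mice were female BALB/c, 8 weeks old when purchased. The saline group (n = 3) was not sensitized. The OVA group (n = 3), given vehicle by mouth as the methods read, received ovalbumin (OVA), an egg-white protein used to provoke allergic airway inflammation, by intraperitoneal injection with alum (50 µg on days 0 and 7) and intranasally (25 µg, for 4 days from day 12). The DSE group (n = 4; named Herb in the labels) received OVA in the same way and an ethanol extract of Descurainia sophia seeds (DSE) by mouth, at 200 mg/kg on days 9 to 15. The design compares asthma-like mice with controls (OVA vs. saline) and treated with untreated asthma-like mice (DSE vs. OVA), and DSE vs. saline was added.

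The T cell receptor binds a peptide presented by another cell, but its antigen-binding chains cannot signal alone. Lck phosphorylates the motifs in the tails of the CD3 chains and of the zeta chain (Cd247), Zap70 docks there, and the adaptors and enzymes downstream lead to calcium release and transcription. These genes are expressed mainly in T cells and natural killer cells, and in allergic airways helper T cells drive the recruitment of eosinophils. Methylation of CpG sites at a gene's start is commonly low where the gene is in use. Lung tissue is a mixture, so that at every window a change in the share of T cells or other leukocytes and a change of methylation within a cell type cannot be told apart.

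Several members' start sites were poor in CpG sites. RefSeq promoters (GRCm38.p6) were found for 7 of the 10 genes, with 10 start sites in all, and the 250 bases before these starts held 0 to 7 CpG sites each (median 3), compared with a median of 6 over 32851 promoters. All 10 had at most 10 CpG sites, as did 64.4% of all promoters. The hexamer GGAAGT, a core of binding sites of ETS factors, occurred on either strand in 6 of the 10 (60%) and in 19.7% of all promoters, TGTGGT, a core of RUNX sites, in 2 (20% vs. 14%), and AGATAA, a core of GATA sites, in 1 (10% vs. 9.99%). A promoter was counted if it held any match, and a match describes these letters only. The next sequences show the 2 RefSeq Select start sites that were themselves measured, and the start used by the shorter Lck transcripts. They run 5′ to 3′ on the strand of the gene up to the base before the start, with CpG sites in capitals. They lie at chr9:44980432-44980681 (minus), chr6:71373177-71373426 (plus) and chr4:129558373-129558526 (minus), the last shortened to the bases outside exons.
Cd3g_start: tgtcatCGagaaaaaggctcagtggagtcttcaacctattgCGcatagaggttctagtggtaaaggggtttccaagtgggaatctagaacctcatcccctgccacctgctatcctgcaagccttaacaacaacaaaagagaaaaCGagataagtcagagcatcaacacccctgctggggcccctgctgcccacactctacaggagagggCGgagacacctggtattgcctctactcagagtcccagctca
Cd8a_start: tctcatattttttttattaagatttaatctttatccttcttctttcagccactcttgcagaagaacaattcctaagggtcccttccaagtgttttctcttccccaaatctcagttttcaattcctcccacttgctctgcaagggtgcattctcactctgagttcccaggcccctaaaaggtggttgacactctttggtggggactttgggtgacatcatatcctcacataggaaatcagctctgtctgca
Lck_proximal_start: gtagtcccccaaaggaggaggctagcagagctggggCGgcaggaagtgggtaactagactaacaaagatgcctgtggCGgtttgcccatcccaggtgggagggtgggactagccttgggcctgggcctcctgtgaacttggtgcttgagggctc

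The other sequences come from windows whose methylation differed between groups, and each is the stretch of 300 bases with the most CpG sites outside noncoding exons. The Lck stretch (chr4:129574886-129575185, minus) lies upstream of the distal start and has 6 CpG sites, 5 of them before a long repeat of four-base units. The Cd2 stretch (chr3:101271001-101271300, minus) lies beyond the end of the gene, with 3 CpG sites. The Cd4 stretch (chr6:124872047-124872346, minus) is in intron 5, with 4 CpG sites. The Cd247 stretch (chr1:165850106-165850405, plus) and the Zap70 stretch (chr1:36767581-36767880, plus) are in intron 1 and hold 6 and 10 CpG sites.
Lck_upstream: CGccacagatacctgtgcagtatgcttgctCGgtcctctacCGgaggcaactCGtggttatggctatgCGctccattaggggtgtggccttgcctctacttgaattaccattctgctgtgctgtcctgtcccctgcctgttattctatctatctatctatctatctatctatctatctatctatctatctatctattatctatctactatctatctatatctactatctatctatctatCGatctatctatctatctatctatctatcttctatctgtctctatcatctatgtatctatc
Cd2_downstream: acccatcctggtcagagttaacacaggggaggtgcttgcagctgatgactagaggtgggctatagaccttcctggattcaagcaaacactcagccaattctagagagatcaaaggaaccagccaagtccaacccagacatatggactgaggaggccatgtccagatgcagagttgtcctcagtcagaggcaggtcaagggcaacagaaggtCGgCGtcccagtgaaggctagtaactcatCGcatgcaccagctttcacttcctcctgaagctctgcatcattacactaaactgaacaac
Cd4_intron5: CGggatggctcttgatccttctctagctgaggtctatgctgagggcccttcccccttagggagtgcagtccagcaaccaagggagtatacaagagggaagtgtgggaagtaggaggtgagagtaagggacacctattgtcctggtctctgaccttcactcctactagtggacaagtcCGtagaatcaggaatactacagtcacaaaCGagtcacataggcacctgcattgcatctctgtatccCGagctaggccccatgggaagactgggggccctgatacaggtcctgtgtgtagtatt
Cd247_intron1: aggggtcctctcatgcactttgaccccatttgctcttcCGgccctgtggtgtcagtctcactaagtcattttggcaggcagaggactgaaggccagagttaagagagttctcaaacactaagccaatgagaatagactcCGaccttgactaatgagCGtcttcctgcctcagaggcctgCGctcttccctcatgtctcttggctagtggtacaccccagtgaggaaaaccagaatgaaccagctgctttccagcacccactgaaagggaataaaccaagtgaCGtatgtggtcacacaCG
Zap70_intron1: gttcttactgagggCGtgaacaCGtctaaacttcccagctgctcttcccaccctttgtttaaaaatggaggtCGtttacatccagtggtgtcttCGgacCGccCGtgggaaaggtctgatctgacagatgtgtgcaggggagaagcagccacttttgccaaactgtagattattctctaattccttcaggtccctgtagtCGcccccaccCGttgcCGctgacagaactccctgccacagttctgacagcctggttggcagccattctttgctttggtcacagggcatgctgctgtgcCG

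The genes were measured unevenly. Cd247 had 41 windows, Zap70 27, Lck 22, Cd4 18, Cd2 12, Cd3g 10, Cd3d 6, Cd28 6, Cd3e 3 and Cd8a 3, and Cd3d and Cd3g, which lie head to head, shared 3 of theirs. The windows covered from 9.56% of the span with flanks in Cd3e to 53.2% in Zap70. For Cd3e this meant only the flank beyond the 3′ end, with the nearest window midpoint 12610 bp from the start. A window centred within 500 bp of the Select start site, and with 20 calls or more in each mouse, existed for Cd3g and Cd8a alone. Of the 145 windows, 39 lay within 1000 bp of a transcript start of any gene (26.9%, vs. 19.1% of all windows), 46 in other exons (31.7%, vs. 13.4%), 36 in introns and 24 between genes. Several windows in the flanks belong to neighbours, such as the start of Ube4a beyond Cd3g, of Gpr162 beyond Cd4 and of Hdac1 beyond Lck. Depth per mouse ranged from 306656737 to 410836272 calls over all windows, in which neighbouring windows count a call again, and the median over member windows and mice was 502 calls, with a range of 11 to 6330.

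In saline mice the median member window was 55.7% methylated, compared with 57.6% over all windows. Among windows near a start site of any gene, the members' median was 62.3%, whereas that of all such windows was 8.42%. Below 20% were 41% of the members' windows and 61.9% of all. These low member windows included the starts of the neighbours Ube4a, Gpr162 and Hdac1, and windows within Lck and Zap70. The windows at the Cd3g and Cd8a starts were at 68.3% and 84.2%. Averaged over windows in which each mouse had 20 calls or more, the saline means ran from 28.4% ± 0.461 (SD, n = 3) in Cd3g, which includes the Ube4a start, to 88.7% ± 7.09 in Cd3e. Cd8a had 86.5% ± 1.11 and Cd28 76.8% ± 0.311. Lck, Cd4, Cd3d and Cd247 lay between 46% and 51.5%, and Cd2 (59.8% ± 3.69) and Zap70 (61.1% ± 0.446) did not differ beyond their spread. Within a gene the range was wide. In Zap70 the windows ran from 1.09% to 94.2%, both beyond the gene's end, in Cd247 from 2.58% in intron 1 to 94.4%, and in Lck from 2.76% over exons 6 to 8 to 97.2% upstream of the proximal start. The saline means of the lowest and highest windows were 1.38% and 96.7% in Cd4, 0.833% and 73.4% in Cd3g, 23.7% and 73.4% in Cd3d, which shares its highest window with Cd3g, and 23.8% and 85.3% in Cd2. Narrower ranges were found for Cd28 (38.3% to 89.4%), Cd3e (79.5% to 97.9%) and Cd8a (84.2% to 90.1%).

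**Figure D1:**
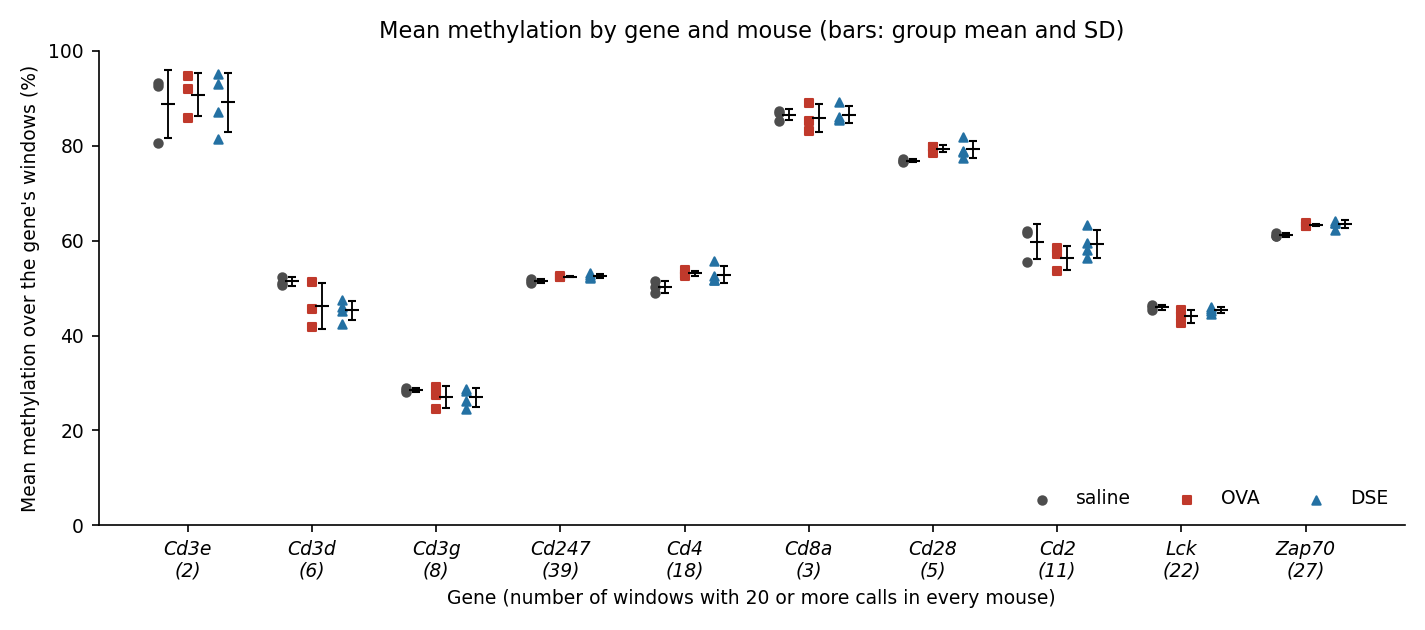
Mean methylation (%) of each gene, taken over the windows in which each mouse had 20 calls or more, by mouse: saline as circles, OVA as squares, DSE as triangles, with the group mean and SD as bars and the number of windows in brackets. The genes differ far more from one another than the groups do within a gene, from 28.4% in Cd3g to 88.7% in Cd3e in saline mice.

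The gene means moved by less than 7 percentage points between groups. In OVA vs. saline the mice of the groups did not overlap for 5 of the 10 genes, compared with 36.5% of 18624 protein-coding genes. Zap70 was 2.15 percentage points higher in OVA, Cd4 2.82, Cd28 2.49 and Cd247 0.871, and the difference of Lck was -1.89 (46% ± 0.493 vs. 44.1% ± 1.37). In DSE vs. saline 5 of 10 genes did not overlap (34.3% of all genes), namely Zap70, Cd4, Cd28 and Cd247, which were higher in DSE, and Cd3d, which differed by -6.14 (51.4% ± 0.905 vs. 45.2% ± 2.08). Between DSE and OVA mice none of the 10 was without overlap, compared with 9.01% of all genes. The smallest p an exact permutation test, two-sided, can give is 0.1 for 3 mice against 3 and 0.0571 for 3 against 4, and so no single mean can pass 0.05.

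Windows were called differentially methylated by a likelihood ratio test of the pooled calls of each group, at an adjusted p (Benjamini-Hochberg over all windows tested) under 0.01 where the groups also lay 10 or more percentage points apart. In OVA vs. saline 7 of 144 member windows tested were hyper-methylated (4.86%; background over all windows 4.75%) and 6 hypo-methylated (4.17%; background 2.56%). These formed 4 hyper- and 4 hypo-methylated regions after overlapping windows were merged, in Cd247, Cd4, Zap70, Cd2 and Lck. For DSE vs. OVA, 1 of 144 was hyper-methylated (0.694%; background 0.898%) and 0 hypo-methylated (background 0.725%). At an unadjusted p under 0.05 of the same test, 8 of these 144 were lower and 30 higher. Over all 437460 windows tested, 60746 were lower and 65625 higher at that level. In DSE vs. saline 6 of 145 were hyper- (4.14%; background 4.95%) and 4 hypo-methylated (2.76%; background 3.07%). Without saline replicate 2 the hyper-methylated windows of DSE vs. saline were 2 instead of 6, and without saline replicate 1 the hypo-methylated ones were 2 instead of 4. The call in DSE vs. OVA was lost without DSE replicate 1, 2 or 4 and could not be tested without OVA replicate 2 or 3, where 0 windows and 1 other window were hyper-methylated, and leaving out OVA replicate 1 gave 1 hypo-methylated window there. The median difference of the members was -0.137 percentage points for OVA vs. saline and 0.401 for DSE vs. saline, compared with 0.732 and 0.721 over all windows. The counts of hyper-methylated windows and of calls in DSE vs. OVA were thus near or below their backgrounds.

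The pooled test takes calls as independent, but mice of 1 group differed by more than counting noise. In pairs of mice of a group the chi-square per member window averaged 2.21 to 4.24, where counting alone gives 1. A moderated test (limma) took the mouse as the unit and the log2 of methylated over unmethylated calls as its value. It gave no member window an adjusted p under 0.05 in OVA vs. saline (0% of all windows), and 36 of 144 had an unadjusted p under 0.05 (25%, vs. 19.2% of all). The counts for DSE vs. OVA were 0 (0.0894% of all) and 7 of 144 (4.86%, vs. 9.66%), and in DSE vs. saline 7 of 145 (4.83%, vs. 4.59%) and 40 (27.6%, vs. 24.2%). All 7 were higher in DSE mice. The mice used did not overlap in 55 of 144 windows of OVA vs. saline (38.2%, vs. 26.9% of all), in 11 of 144 of DSE vs. OVA (7.64%, vs. 10.5%) and in 41 of 145 of DSE vs. saline (28.3%, vs. 24%). The 2 comparisons with saline share the saline mice and are therefore not independent of each other.

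**Figure D2:**
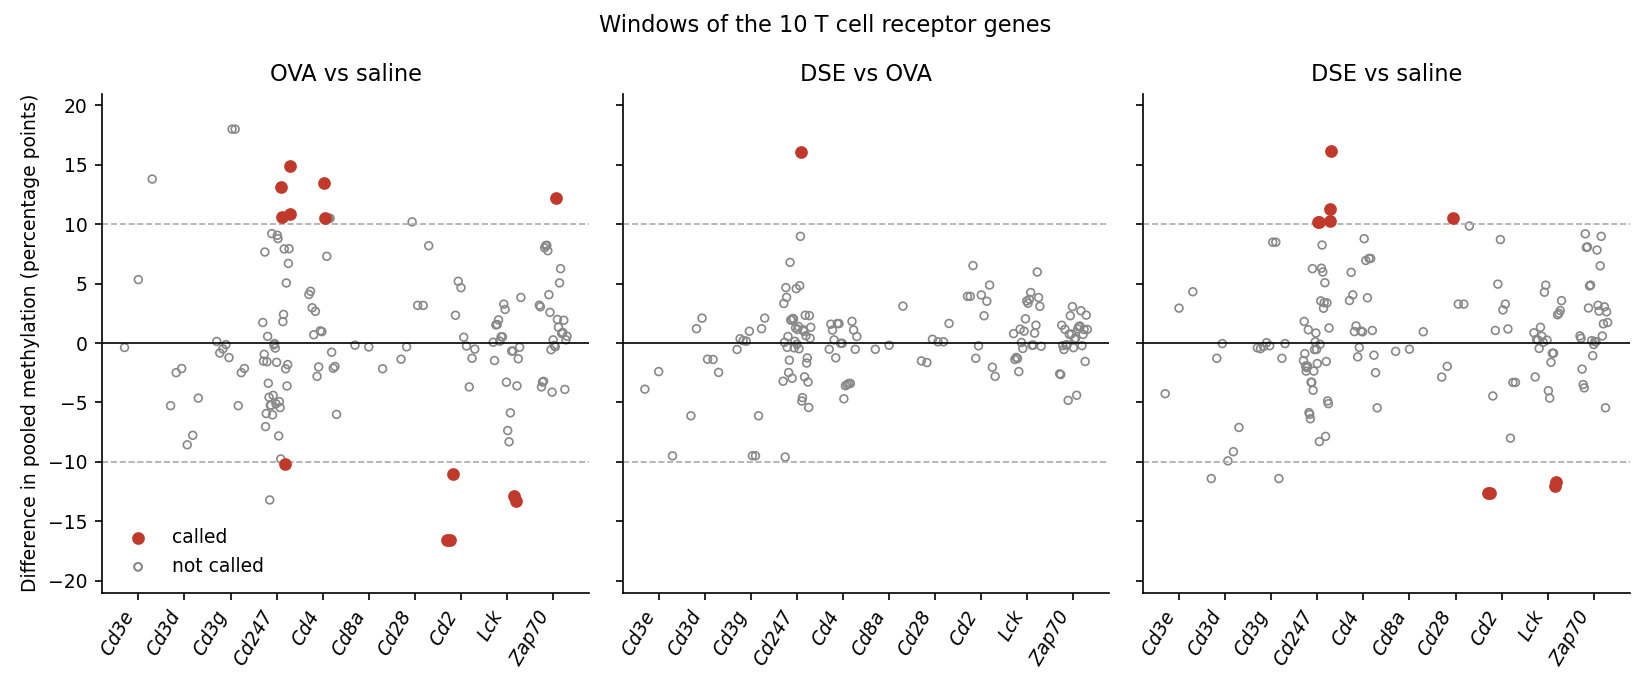
Difference in pooled methylation (percentage points, second group minus first: OVA minus saline, DSE minus OVA, DSE minus saline) of each member window tested, by gene and in genome order within a gene. Filled points passed the adjusted p and the 10 percentage points marked by dashed lines, and 13 such points stand in the panel of OVA vs. saline, 1 in that of DSE vs. OVA and 10 in that of DSE vs. saline.

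Cd3e, Cd3d and Cd3g encode the CD3 epsilon, delta and gamma chains, and no window of theirs was called in any comparison. The Cd3g start-site window (chr9:44980001-44981000, exon 1 and upstream sequence, the first sequence above) was 70.1%, 69.4% and 65.4% methylated in the saline mice. The OVA mice had 71.4%, 64% and 61.7%, and the DSE mice 62.6%, 69.6%, 69.3% and 67.3%. The groups overlapped, with means of 68.3% ± 2.52, 65.7% ± 5.05 and 67.2% ± 3.25, and the p-values of the exact permutation tests were 0.5, 0.686 and 0.686 (all 0.914 after adjustment over 6 tests). Pooled calls of the windows within 1000 bp of the Cd3d start, 2 windows which both belong to the Cd3g windows too, overlapped in the same way (67.9% ± 3.22, 65.5% ± 4.99 and 67.4% ± 2.89). At the other end of Cd3d the values were lower in both OVA-sensitized groups. The window over exons 3 to 5 (chr9:44985501-44986500) had 37.9%, 44% and 36.9% in saline mice, 35.6%, 30.2% and 25.9% in OVA mice, and 28.9%, 28.1%, 28.4% and 32.5% in DSE mice. No mouse of the saline group overlapped with either other group. The pooled differences of -8.56 percentage points for OVA vs. saline and -9.91 for DSE vs. saline stayed under 10, and the limma adjusted p-values were 0.235 and 0.0639. The next window, over exons 4 and 5, had differences of -7.76 and -9.14. The largest rise among the windows tested in OVA vs. saline was in the last exon of Cd3g, exon 7 (chr9:44969001-44970000 and the next window, with identical calls). The saline mice had 47.7%, 60% and 51.6%, the OVA mice used 75% and 65.5%, and the DSE mice used 59.4%, 66.7% and 60.5%. OVA mice did not overlap with saline mice, and DSE mice overlapped with both. At 11 to 44 calls, and with 1 OVA and 1 DSE mouse not used, the difference of 18 percentage points was not called (pooled adjusted p = 0.0445, limma adjusted p = 0.174). In the 3 windows of Cd3e, methylation was at least 50% in every mouse used, and the groups overlapped.

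Cd247, the zeta chain, whose tail carries the most signalling motifs of the complex, had the most windows and 11 of the 24 calls made over the 3 comparisons. Relative to the windows tested this was 8.94% (of 123), vs. 14.7% (5 of 34) in Cd2, where windows with identical calls were each counted. Over all windows 4.75% were hyper- and 2.56% hypo-methylated in OVA vs. saline. The shares were 0.898% and 0.725% in DSE vs. OVA, and 4.95% and 3.07% in DSE vs. saline. Of the 11 Cd247 calls, 6 lay over exons of the neighbouring gene Pou2f1. In exon 8, the last exon, the window chr1:165861001-165862000 was 61.2%, 51.2% and 50% methylated in saline mice. OVA mice had 67.4%, 68.3% and 67.9%, and DSE mice 62.5%, 64.6%, 59.9% and 64.3%. OVA mice were above all others and close together, whereas DSE mice overlapped with saline. The pooled difference was 13.1 percentage points in OVA vs. saline (called; limma adjusted p = 0.132), and with each mouse left out in turn it was 10.3 to 17.3 and remained called. Between OVA and DSE it was -4.88 (limma adjusted p = 0.517), with no overlap between those groups. The next window (chr1:165861501-165862500) rose by 10.6 in OVA vs. saline and was not called without saline replicate 2 or 3 (lowest difference 8.43). Beyond the annotated end of Cd247, over exons of Pou2f1 and reaching only 153 bases into the 5 kb flank, the window chr1:165876001-165877000 had 52.3%, 42.9% and 47% in saline mice. OVA mice had 60.5%, 64.6% and 61.1%, and DSE mice 63%, 64.3%, 65.5% and 61.5%. Saline mice were lowest, without overlap, and OVA and DSE mice overlapped. The differences were 14.9 in OVA vs. saline (limma adjusted p = 0.116) and 16.2 in DSE vs. saline (limma adjusted p = 0.0317), both called with any single mouse left out. The window 500 bp before it was called in both comparisons too (10.9 and 11.3; limma adjusted p = 0.124 and 0.0385), the first call being lost without saline replicate 2 (9.75). The one before that, chr1:165875001-165876000, was called in DSE vs. saline with 10.3 (limma adjusted p = 0.0713), and not without saline replicate 2, DSE replicate 1 or DSE replicate 4 (lowest difference 9.05). One window fell in OVA vs. saline, chr1:165864501-165865500, also over Pou2f1 exons, with a difference of -10.2 that was not called without saline replicate 1, saline replicate 3 or OVA replicate 2 (smallest size: -8.75).

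Within intron 1 of Cd247 the windows chr1:165849501-165850500 and chr1:165850001-165851000, whose shared bases hold the Cd247 sequence above, differed in the same direction. The first had 42.6%, 38.5% and 48.2% in saline mice, 52.3%, 52.8% and 52.6% in OVA mice, and 51.8%, 56.8%, 54.1% and 52.8% in DSE mice. Saline mice were lowest, without overlap. The difference was 10.2 in DSE vs. saline (called; limma adjusted p = 0.0789), and the call was lost without saline replicate 1, saline replicate 2 or DSE replicate 2 (lowest difference 8.32). In OVA vs. saline it was 9.07, under the 10 percentage points. A CpG-rich stretch of the same intron, chr1:165844501-165845500, with 50 CpG sites, was nearly unmethylated in all groups (2.58% ± 0.524, 2.42% ± 0.514 and 2.04% ± 0.433). The only call of DSE vs. OVA among the members was also in this intron, at chr1:165854001-165855000. There the 2 OVA mice with at least 20 calls had 66.7% and 59.5%, DSE mice 80.8%, 80.5%, 74.8% and 81.6%, and saline mice 71.8%, 78.2% and 70%. DSE was 16.1 percentage points higher than OVA (limma adjusted p = 0.151). OVA replicate 1 was not used for lack of calls, and the call was lost without DSE replicate 1, 2 or 4, with a lowest difference of 15.4. It was lost too when mice with fewer calls were included, and the window could not be tested without OVA replicate 2 or 3.

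**Figure D3:**
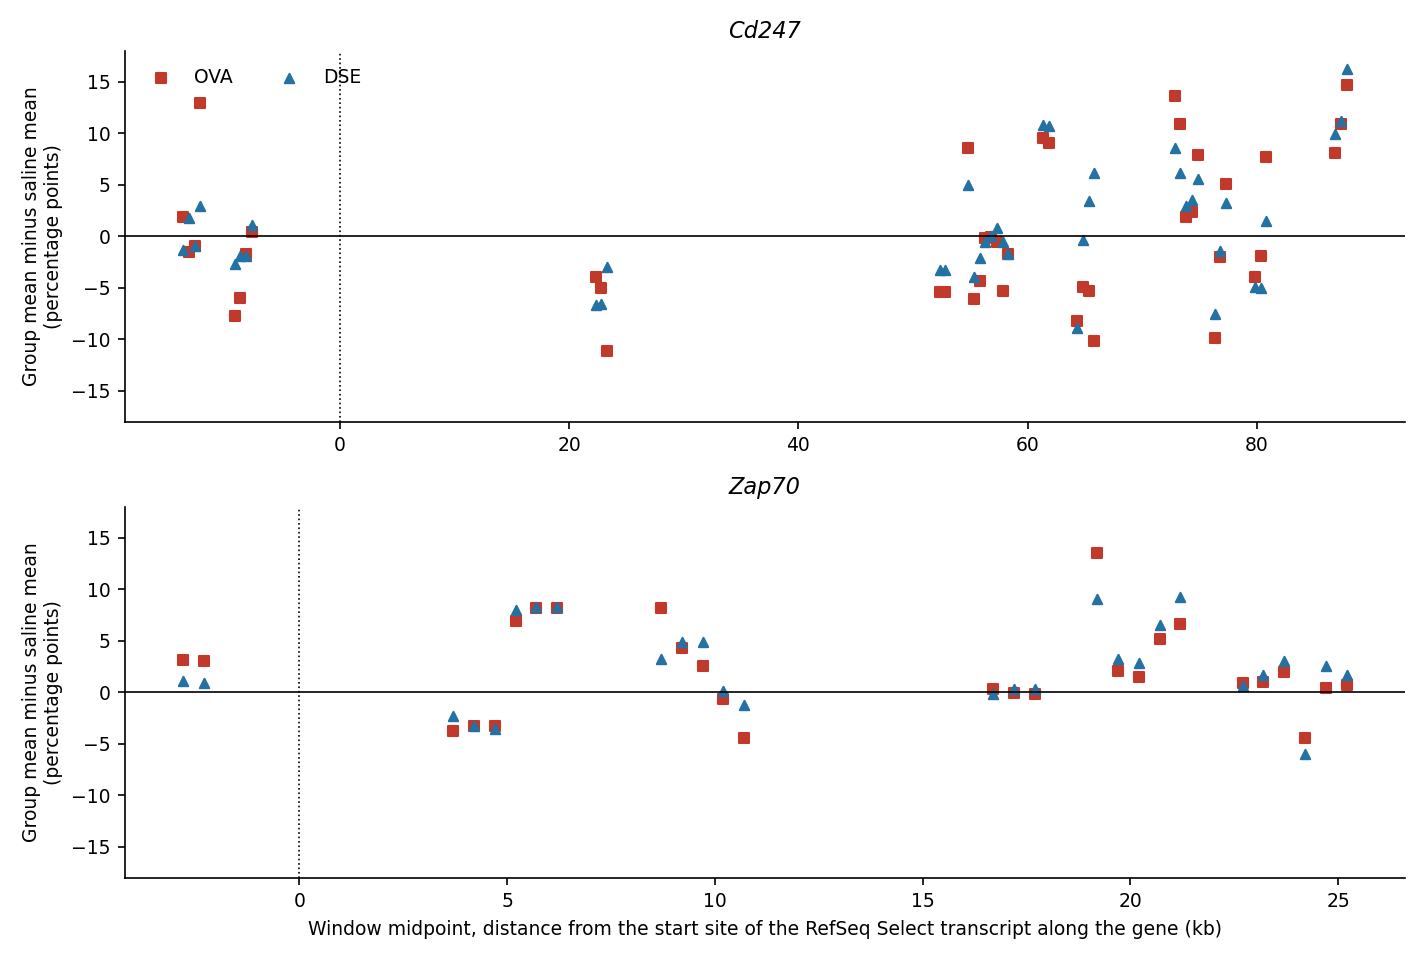
Mean methylation of OVA (squares) and DSE mice (triangles) minus the saline mean (percentage points) in each window of Cd247 and Zap70, against the distance of the window midpoint from the Select start site along the gene (kb). At most windows the OVA and DSE points lie close together, as at the far end of Cd247, where the pooled differences from saline were 14.9 and 16.2.

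The coreceptor genes were measured in unlike parts, Cd4 in 18 windows along the gene and its flanks and Cd8a in 3 near its start. The body of Cd8a was therefore not compared with that of Cd4. In Cd4, which marks helper T cells, the window chr6:124871501-124872500, from intron 5 into exon 5, had 37.5%, 41.4% and 41.6% in saline mice. OVA mice had 54%, 52.4% and 54.3%, and DSE mice 49.3%, 51.6%, 46.7% and 47.9%. The groups did not overlap in any pair, with DSE between the others. The difference was 13.5 percentage points in OVA vs. saline (limma adjusted p = 0.105), and the window was called with each mouse left out (12.2 to 14.2). It was 8.78 in DSE vs. saline (limma adjusted p = 0.0821) and -4.69 in DSE vs. OVA (limma adjusted p = 0.597), neither of which passed 10 percentage points. The overlapping window chr6:124872001-124873000 rose by 10.5 in OVA vs. saline (9.14 and not called without saline replicate 1). Near the start of Cd4, in intron 1, the window chr6:124887001-124888000 had 96.4%, 95.9% and 97.9% in saline mice, 91.1%, 90.7% and 90% in OVA mice, and 93.3%, 88.1%, 93.2% and 91.2% in DSE mice. Saline mice were above all others, at a depth of 30 to 91 calls, and the differences of -6 and -5.45 percentage points were not called (limma adjusted p = 0.103 and 0.0573).

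Cd8a, which marks cytotoxic T cells, was highly methylated in all groups in its 3 windows. The start-site window (chr6:71373001-71374000, exon 1) had 82.8%, 84.9% and 84.9% in saline mice, 82.7%, 83.6% and 86% in OVA mice, and 80.9%, 81.8%, 83.8% and 88% in DSE mice. The 250 bases before this start hold no CpG site (second sequence above), and the window has 24. The groups overlapped, and the exact permutation tests gave p = 0.9, 0.914 and 0.8 for OVA vs. saline, DSE vs. OVA and DSE vs. saline, with differences of -0.136, -0.444 and -0.579 percentage points.

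Of the costimulatory and adhesion genes, Cd2 had the largest decrease among the member windows tested in OVA vs. saline. The windows chr3:101270501-101271500 and chr3:101271001-101272000, beyond the end of the gene, held identical calls in every mouse, so that all CpG sites measured there lie in the 500 bp they share, where the Cd2 sequence above was taken. The saline mice had 92.4%, 82.1% and 81.3%, the OVA mice 73.4%, 63.7% and 67.7%, and the DSE mice 72.3%, 71.2%, 75.2% and 69.9%. Saline mice were highest, without overlap, and OVA and DSE mice overlapped. Methylation fell by 16.6 percentage points in OVA vs. saline (limma adjusted p = 0.141; -19.2 to -13.6 with each mouse left out, always called). In DSE vs. saline it fell by 12.6 (limma adjusted p = 0.0787), with -9.65 and no call when saline replicate 1 was left out. A second site, in exon 4 (chr3:101279001-101280000), had 87.5%, 80.9% and 74.4% in saline mice, 65.4%, 69.5% and 73.3% in OVA mice, and 76.1%, 72.7%, 75% and 83.1% in DSE mice. It fell by 11 percentage points in OVA vs. saline (limma adjusted p = 0.203). The margin between the lowest saline and the highest OVA mouse was narrow, and the call was lost without saline replicate 1 or OVA replicate 1 (smallest size: -7.94).

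Cd28, the main costimulatory receptor of naive T cells, had 1 call. In intron 1 (chr1:60754001-60755000) the saline mice had 89.1%, 85.7% and 90.9%, the OVA mice used 97.6% and 100%, and the DSE mice used 100%, 100% and 96.4%. Saline mice were lowest, without overlap, and OVA and DSE mice overlapped. The difference was 10.5 percentage points in DSE vs. saline (called; limma adjusted p = 0.0362) and 10.2 in OVA vs. saline, which was not called (pooled adjusted p = 0.022, limma adjusted p = 0.103). The depth was only 11 to 46 calls, OVA replicate 1 and DSE replicate 4 were not used, and the call was lost when saline replicate 1, saline replicate 2, DSE replicate 1 or DSE replicate 2 was left out (lowest difference 9.14). Exon 2 (chr1:60763001-60764000), at 3601 to 4653 calls, was 85.3%, 83.3% and 82.4% methylated in saline mice, 84.2%, 88.7% and 87.4% in OVA mice, and 86.9%, 85.9%, 87.8% and 86.8% in DSE mice. DSE mice did not overlap with saline mice, whereas OVA mice overlapped with both. The differences from saline were 3.28 percentage points in DSE (limma adjusted p = 0.172) and 3.17 in OVA mice (limma adjusted p = 0.372). Beyond the end of Cd28 (chr1:60778001-60779000) the saline mice had 39.3%, 38.5% and 37.1%, the OVA mice 46%, 44.1% and 49%, and the DSE mice 44.7%, 45.3%, 48.8% and 52.6%. Saline mice were again lowest, and the differences of 8.19 and 9.85 were not called.

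Lck, the kinase that starts receptor signalling, has a distal start, used by its RefSeq Select transcript, and a proximal start about 15 kb along the gene. The windows upstream of the distal start fell in both comparisons with saline. The window chr4:129574501-129575500, with its midpoint 1360 bp before the start, had 53%, 50.5% and 49.2% in saline mice. The OVA mice had 37.3%, 36% and 42.2%, and the DSE mice 39.9%, 40.3%, 42.6% and 33.8%. All saline mice were above all others, and OVA and DSE mice overlapped. The differences were -12.9 percentage points in OVA vs. saline (limma adjusted p = 0.121; -14.3 to -11.6 with each mouse left out) and -12 in DSE vs. saline (limma adjusted p = 0.0591; -13.1 to -10.1), called in every such fit. Between OVA and DSE it was 0.835 (limma adjusted p = 0.977). The overlapping window chr4:129575001-129576000 fell by 13.3 and 11.7. The second call was lost without saline replicate 1 or DSE replicate 4 (smallest size: -9.83). The Lck_upstream sequence above comes from these windows.

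**Figure D4:**
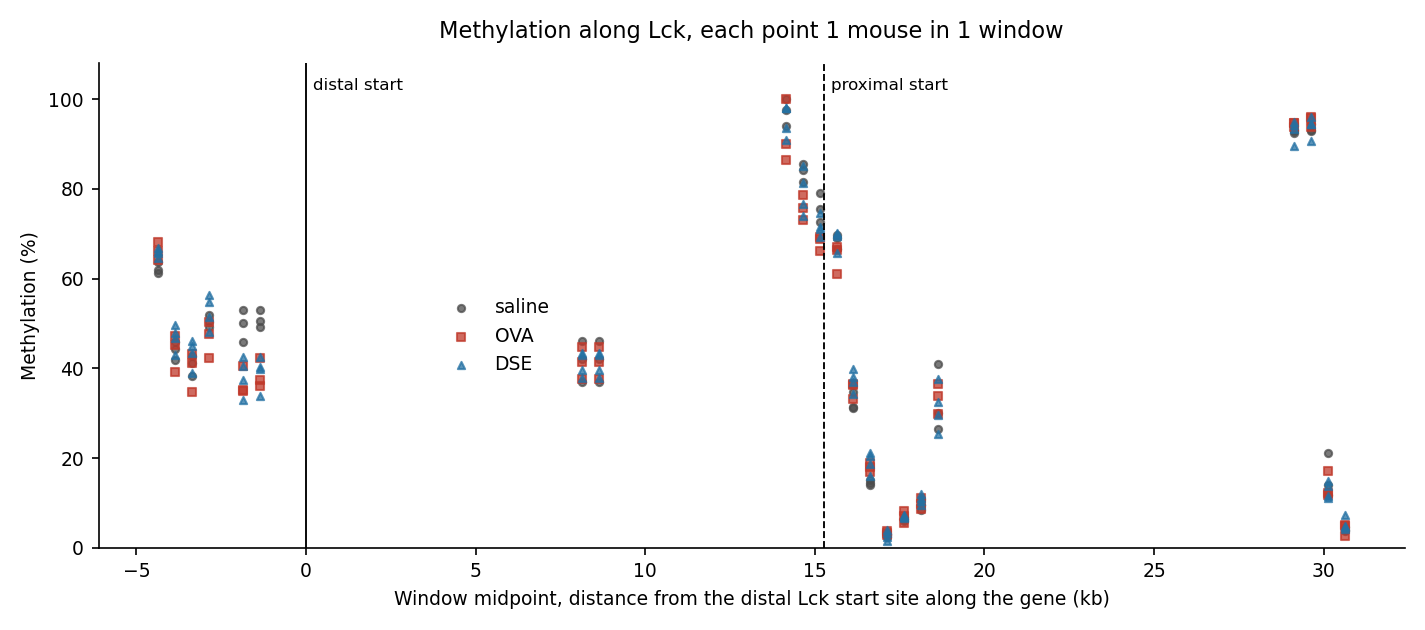
Methylation (%) of every mouse in each Lck window against the distance of the window midpoint from the distal start along the gene (kb): saline as circles, OVA as squares, DSE as triangles. The saline mice stand apart, at 49.2% to 53%, in the window 1360 bp upstream of the distal start, and all mice lie below 4% over exons 6 to 8.

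At the proximal Lck start (sequence above) methylation was high upstream and dropped along the gene. The window over the start (chr4:129558001-129559000) had 75.5%, 79% and 72.7% in saline mice, 69.2%, 68.8% and 66.1% in OVA mice, and 71%, 74.6%, 71.5% and 69.2% in DSE mice. OVA mice did not overlap with saline mice, nor, by a margin smaller than the rounding, with DSE mice. The differences of -7.36 for OVA vs. saline and 3.35 for DSE vs. OVA were not called (limma adjusted p = 0.187 and 0.681). In the following windows methylation decreased from 69%, 69.7% and 66.6% in saline mice, 372 bp after that start, to 34.7%, 31.2% and 31.4% at 872 bp, and to 13.9%, 15.1% and 14.4% at 1372 bp. In the last of these, over exons 4 to 6, the OVA mice (16.8%, 18.9% and 18%) and DSE mice (15.9%, 21.2%, 20.4% and 18.7%) were above the saline mice, by 3.28 and 4.28 percentage points, and were not called. The CpG-rich windows that follow, over exons 6 to 9, were below 13% in every mouse. The windows of the flanks belonging to Hdac1 and Fam167b were not called.

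**Figure D5:**
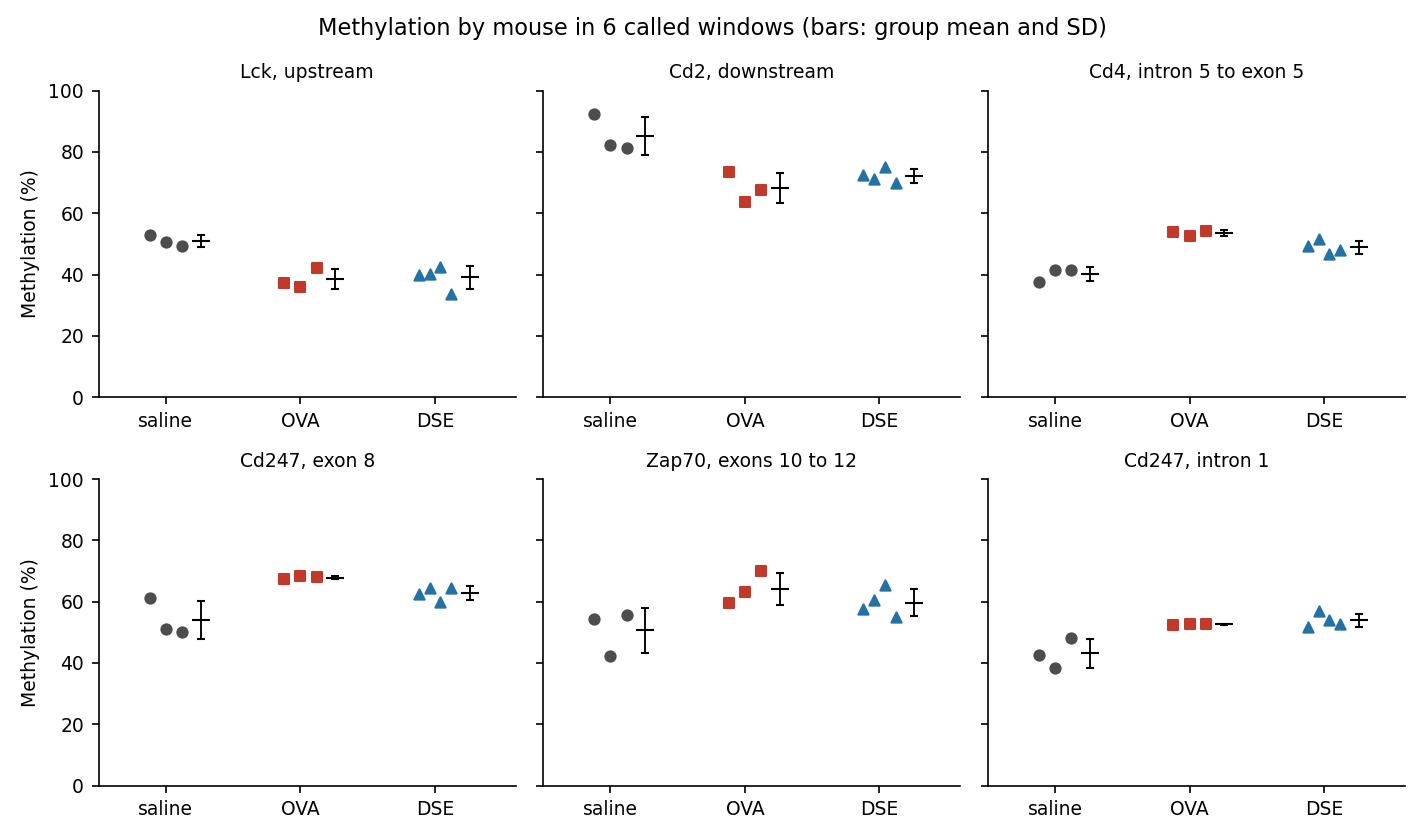
Methylation (%) by mouse in 6 windows called in at least 1 comparison, for saline (circles), OVA (squares) and DSE (triangles), with group mean and SD as bars. In each panel no OVA mouse overlaps with a saline mouse, with OVA lower in the Lck and Cd2 windows and higher in the other 4.

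Zap70, the kinase that binds the phosphorylated chains, has 4 curated starts, of which 3 had windows within 1000 bp. At chr1:36778501-36779500, on the last of them, the mice were 89.4% to 92.4% methylated in all groups (differences of -0.197, 0.337 and 0.139 percentage points). The third start, in intron 1 of the Select transcript, was a transition. The window ending near it (chr1:36766001-36767000) was 93.8%, 90.4% and 93.5% methylated in saline mice. At the start itself (chr1:36766501-36767500, 36 to 83 calls) the saline mice had 19.4%, 17.4% and 6.56%. The OVA mice had 21.4%, 18.2% and 24.6% there, and the DSE mice 25.6%, 18.1%, 27.3% and 18.8%. The groups overlapped (limma adjusted p = 0.413 for OVA vs. saline and 0.287 for DSE vs. saline). The window after the start (chr1:36767001-36768000) had 21.2%, 19.3% and 18.4% in saline mice, 29.7%, 25.1% and 28.4% in OVA mice, and 26.9%, 26%, 30.4% and 28.1% in DSE mice. Saline mice were lowest, without overlap, and OVA and DSE mice overlapped. The differences of 8.2 for OVA vs. saline and 8.05 for DSE vs. saline did not reach 10 percentage points. With limma the adjusted p-values were 0.135 and 0.0471, and the overlapping window, which shares the Zap70 sequence above, had 8.23 and 8.09 (limma adjusted p = 0.132 and 0.0452).

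The 1 call in Zap70 was over exons 10 to 12, at chr1:36780501-36781500. The saline mice had 54.3%, 42.2% and 55.5%, the OVA mice 59.5%, 63.2% and 69.9%, and the DSE mice 57.7%, 60.5%, 65.3% and 55.1%. The difference was 12.2 percentage points in OVA vs. saline (limma adjusted p = 0.194), with no overlap, and 9.05 without saline replicate 2, where the call was lost, as it was without OVA replicate 3. DSE mice overlapped with both groups. Exon 13, the last exon, also had no overlap with saline in its final windows. At chr1:36782501-36783500 the saline mice had 47.3%, 48.5% and 54.7%, the OVA mice 57.4%, 55.2% and 57.9%, and the DSE mice 61.4%, 55.3%, 60.2% and 60.7%, with differences of 6.26 and 8.98 that were not called. Beyond the gene, a CpG-rich and nearly unmethylated stretch (chr1:36785001-36786000, 40 CpG sites) had 3.6%, 3.08% and 3.68% in saline mice. OVA mice had 5.03%, 5.1% and 6.06%, and DSE mice 6.76%, 5.35%, 7.19% and 6.7%. The difference of 3.05 percentage points in DSE vs. saline had a limma adjusted p of 0.0305, as did 1.62 in the window before it (0.0279), the lowest limma adjusted p among the members.

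The wider pathway was described through 39 other genes of T cell receptor signalling, of which 37 had windows. In OVA vs. saline 68 of their 1024 windows were hyper-methylated (6.64%; background 4.75%) and 91 hypo-methylated (8.89%; background 2.56%). At least 1 hyper-methylated window was found in 18 genes, at least 1 hypo-methylated window in 22, both in 11 and neither in 8. Ptprc, the phosphatase CD45 of all leukocytes, had 13 hypo-methylated windows of 22, Fyb, an adaptor, 12 of 78, and Nfatc1, a transcription factor, 10 of 54. Fyb had 4 hyper-methylated windows as well. In DSE vs. saline the counts were 65 (6.3%; background 4.95%) and 94 (9.11%; background 3.07%) of 1032. Those of DSE vs. OVA, 5 (0.489%; background 0.898%) and 8 (0.783%; background 0.725%) of 1022, were near or below the background. The first of the last 2 counts was 8 without OVA replicate 2, OVA replicate 3 or DSE replicate 1 and 3 without DSE replicate 3, and the second was 13 without OVA replicate 1. With limma 81 windows of DSE vs. saline had an adjusted p under 0.05 (7.85%, vs. 4.59% of all windows). None had in the other comparisons, OVA vs. saline and DSE vs. OVA, where 298 (29.1%, vs. 19.2% of all) and 87 (8.51%, vs. 9.66%) had an unadjusted p under 0.05.

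By the size of the difference at a called window, Plcg1, a phospholipase, led OVA vs. saline with 34.4 percentage points, from 33.5% ± 4.85 in saline to 68.7% ± 19.9 in OVA mice, at 15 to 33 calls and with 1 of the 10 mice not used. Fyn, a kinase related to Lck, rose by 31 (31.9% ± 9.11 vs. 61.9% ± 3.25) and Pag1, an adaptor that restrains Lck, by 28.1 (30.6% ± 9.75 vs. 58.4% ± 2.86). Ptpn22, a phosphatase acting on Lck and Zap70, fell by 27.8 near its start (70% ± 5.93 vs. 43.2% ± 2.97) and Malt1 by 25. In DSE vs. saline the largest were Ptpn22 (-24.8), Ptprc (-24.6), Pag1 (23.7), Ppp3ca, a calcineurin subunit (23.6), and Fyb (-23.4). Those of DSE vs. OVA were Trat1, a receptor-associated adaptor, which fell by 22.9 (73.1% ± 5.78 vs. 49.8% ± 5.27), Fyb (-20.6), Sos1 (-17.7), Grap2 (-17.6) and Bcl10 (17.5), the last without separation of the mice. The limma adjusted p-values of these windows were 0.103 to 0.144 in OVA vs. saline, 0.0306 to 0.0572 in DSE vs. saline and 0.0935 to 0.39 in DSE vs. OVA.

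Some markers of other cells differed between the groups. At start-site windows, available for 4 of 5 pan-leukocyte genes (Ptprc, Coro1a, Laptm5 and Itgb2), the mean was 44% to 46% in saline mice, 31.5% to 35.7% in OVA mice and 31.4% to 34.4% in DSE mice. Ptprc alone went from 70.6% ± 3.9 to 50.1% ± 4.93 and 48.8% ± 3.47. Laptm5 (58%, 45.7% and 41.5%) and Itgb2 (47.4%, 33.1% and 37.1%) were also lower in the OVA and DSE means. Coro1a was nearly unmethylated in each group (3.31%, 2.94% and 3.13%). Of the macrophage list only Cd68 was measured, at 48.4% to 52.5%, 43.4% to 46.8% and 44% to 45.7%. For 3 of 5 endothelial genes the ranges were 10.7% to 12.9%, 14.3% to 16.1% and 13.8% to 15.4%. Most of this difference lay in Tek (24.9%, 34.1% and 31.2%). Cldn5 had 8.37%, 10.3% and 10.8%, and Kdr 1.21%, 1.33% and 1.37%. The ranges of 4 of 5 eosinophil genes (64.4% to 71.1%, 62.9% to 66.3% and 56.6% to 64.4%) overlapped between saline and OVA and met between saline and DSE. Prg2 (62.1%, 57.3% and 52.4%), Ccr3 (82.1%, 72.2% and 77.6%) and Ear2 (78.7%, 74.9% and 71.9%) were lower in the OVA and DSE means. Siglecf was at 51.1%, 53% and 45.7%. The B cell gene Cd79a (55.3% to 62.7%, 55.6% to 60.5% and 56.1% to 63.8%), 3 of 5 epithelial genes (25.3% to 26.9%, 24.8% to 26.2% and 24.6% to 30.8%) and the 2 T cell start sites (75.2% to 77.1%, 73.8% to 77% and 71.7% to 77.7%) overlapped between groups. Methylation does not show which cells were present. In saline lung the endothelial starts ranged from 1.21% in Kdr to 24.9% in Tek, and the epithelial ones from 2.16% in Cdh1 to 67.6% in Sftpc. The part of these markers in the differences at Lck, Cd2, Cd4, Cd247 and Zap70 was not tested. In its course over the 10 mice, the mean of the 2 T cell start sites was most like the start-site windows of Zfp772 (Pearson r = 0.836), Rhox2b (0.776), Car15 (0.742), Scn2a (0.71) and Blnk (0.705), out of 2066 genes whose SD over mice was at least 3 percentage points. Both profiles share libraries and depth, and the SD of the mean of Cd3g and Cd8a was only 1.88 percentage points. These are the highest of 2066 correlations over only 10 mice, and whether they exceed what chance gives was not tested.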

How the data were processed

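Lung DNA of 10 mice was analysed in 3 groups taken from the sample labels; Herb was read as DSE, the only herb the study describes. The authors captured and bisulfite-sequenced the libraries, trimmed reads, mapped them to mm10 and summed calls; the submitters' processing notes name cutadapt 1.10, Bismark 0.19.0 and methylKit 1.0.0. The deposited values are counts of all, methylated and unmethylated CpG calls per mouse and window, without normalization, and no mouse has fewer than 10 calls in a window.

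Percentages were taken from 20 calls per mouse upward, and windows were tested with 2 or more such mice per group. Calls pooled by group entered a likelihood ratio test (logistic model, no overdispersion term). limma 3.58.1 (R 4.3.3) used log2 ratios with a pseudocount of 1. Both were adjusted over all windows and checked on simulated calls. Other tools were Python 3.11.15, numpy 2.4.6, scipy 1.17.1 and pandas 2.3.3. Means ± SD are over mice. Genes, exons and sequences came from RefSeq on GRCm38.p6, the assembly of mm10.

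The genes, the 39 pathway genes, the marker lists and the tests were chosen with earlier results of these data known. Named were all 10 genes, with the start-site window, the lowest and highest window in saline and each called window (at most 20 per comparison); the 5 pathway genes with the largest difference at a called window per comparison; and the 5 genes most like the T cell start sites. Other windows, and the genes with most pathway windows, were chosen after their values were seen. Alternatives were other minimums of calls, tests, thresholds, flanks and window sets, a replicate block, and leaving out single mice. Calls from 1 molecule are not independent, which the pooled test ignores.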

Additional observations from a re-analysis of the deposited data

Results flagged for a closer look

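In exon 8 of Cd247, the window chr1:165861501-165862500 was 63.4% methylated in DSE replicate 3, whereas the other DSE mice had 66.8%, 67.4% and 67.3%. The gap to the nearest mouse was 0.849 of the range of the group, above the 95% critical value for a single deviating sample among 4. It was the 1 such value in 29 sets of 4 DSE mice examined (called windows, start sites and gene means), and chance alone gives about 1 in 20.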

How the results depend on the processing

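Counts are hyper- then hypo-methylated windows. For OVA vs. saline (7 and 6 windows of the 10 genes; 68 and 91 of the pathway), they stayed within 1.5 times these with 50 calls per mouse, no minimum, every mouse covered or unweighted means. A difference of 20 percentage points left 0 and 0, and 11 and 12. Windows that do not overlap, fewer by construction, gave 3 and 3, and 32 and 45. Without flanks there were 2 hypo-methylated windows in this comparison, and 3 and 0 windows for DSE vs. saline. There (6 and 4; 65 and 94), 20 percentage points left 0 and 0, and 3 and 10, and windows that do not overlap gave 2 hypo-methylated windows of the 10 genes and 33 and 48 of the pathway. For DSE vs. OVA (1 and 0; 5 and 8), the 1 window was not called (0) with 50 calls, no minimum, every mouse covered or 20 percentage points. The pathway then had 0 and 3 windows at 20 percentage points, and 2 and 4 that do not overlap.

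A quasi-binomial F test, which scales by how far mice of a group differ, called 0 windows of either list and of the whole table in each comparison. At an unadjusted p under 0.05 it had 28 of 144 windows of the 10 genes for OVA vs. saline (19.4%, vs. 15% of all), 8 of 144 for DSE vs. OVA (5.56%, vs. 7.17%) and 39 of 145 for DSE vs. saline (26.9%, vs. 20.4%). limma at an adjusted p of 0.01 and 10 percentage points also called 0 in both lists. At 0.05 with no minimum difference it called 0 except for DSE vs. saline, with 7 and 0 windows of the 10 genes and 30 and 51 of the pathway.

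Mice sharing a replicate number had correlations of their deviations of -0.0273 to 0.0785 over 9 pairs, vs. -0.0574 to 0.043 over 24 other pairs. The labels do not say what the number stands for, and whether it marks a batch was not tested. With the replicate number as a block, the 10 genes had 7 and 6 windows for OVA vs. saline, 0 and 0 for DSE vs. OVA, and 6 and 4 for DSE vs. saline. The pathway had 70 and 91, 3 and 11, and 57 and 94.

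With single mice left out, the 10 genes had 6 to 10 and 4 to 7 windows for OVA vs. saline, 0 to 1 and 0 to 1 for DSE vs. OVA, and 2 to 8 and 2 to 6 for DSE vs. saline. The pathway had 3 to 8 and 8 to 13 for DSE vs. OVA. Of the 24 called windows over the 3 comparisons, 10 were called in every such fit and no difference changed sign. With unweighted means 22 were called, the others being at -9.89 and 9.85 percentage points. With single mice left out, the start-site difference of Cd3g ran from -5.41 to -0.573 in OVA vs. saline. It ran from -0.515 to 4.32 in DSE vs. OVA and from -2.53 to 0.458 in DSE vs. saline. That of Cd8a ran from -1.09 to 0.571, -1.91 to 0.512 and -2.04 to 0.328 in the same order of comparisons. All but the first of these ranges included both signs. Depth limits 7 of the 145 windows, in Cd3e, Cd3g, Cd247, Cd28 and Cd2, where at least 1 mouse had fewer than 20 calls.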
